A study of Macaca fascicularis with 15 samples.

Results

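EGR1, ATF3 and JUN are immediate early genes, measured here by RNA sequencing in the eye of the cynomolgus monkey, Macaca fascicularis. The 3 genes were taken by name, each found in 1 row of every deposited table, among 12995 genes in all. Tables were analysed for 11 of the 15 samples: 4 of central retina, 3 of peripheral retina, 2 of whole retina and 2 of whole eye. The other 4 samples, not analysed here, are second records under the same source names as the whole retina and whole eye replicates used. All animals were wild type, each sample came from 1 eye, the tissue had been stored in an RNA stabilizer, and no treatment is named for any group. The labels call the eye and retina replicates biological, but give no age, sex or animal behind each sample. P-values therefore cover the spread among these libraries alone, part of which could be technical. The table headers of the central samples name the macula, the area of sharpest vision.

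Immediate early genes are transcribed quickly after a stimulus such as light, a growth factor or injury, without the need for newly made protein. EGR1 encodes a zinc finger transcription factor that MAP kinases switch on through the factors SRF and ELK. JUN encodes a leucine zipper protein that pairs with FOS proteins to form the AP-1 factor. ATF3 encodes a stress-induced leucine zipper protein that can pair with JUN, and in rodents it is known for its induction in retinal ganglion cells after injury of the optic nerve. In the chick retina the EGR1 counterpart is known as a marker of amacrine cells that respond to image focus.

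The values have no stated unit and absolute depth is unknown. Listed values summed to between 299480 and 335644 in the 7 regional libraries, and to between 356677 and 375035 in the 4 libraries of whole retina and whole eye. Between 313 and 501 genes were listed at 0 in a regional library, against 171 to 226 in a library of whole retina or whole eye. Markers of other tissues were present in the libraries labelled whole retina. The 5 muscle markers had sums of 10.4 to 15.4 in central retina, 10.3 to 11.5 in peripheral retina, 1201 to 1400 in whole retina and 586 to 1247 in whole eye. ACTA2, MYH11 and DES carried the whole retina sums, and the skeletal muscle genes ACTA1 and MYH2 were not raised there. ACTA1 averaged 2.82 in central, 2.07 in peripheral and 0.555 in whole retina, and 24.15 in whole eye. MYH2 averaged 0.125, 0.0567, 0.045 and 4.67 in the same order. The 4 lens markers summed to 264 to 426 in whole retina, against 2029 to 2126 in whole eye. Pigment epithelium markers, 6 in number, had sums of 65.8 to 156 in central retina, 355 to 544 in peripheral retina, 2060 to 2211 in whole retina and 2193 to 2367 in whole eye. In any comparison of central or peripheral retina with whole retina, region and these differences cannot be told apart.

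EGR1 stood highest in whole retina. Its values were 8.08, 6.71, 6.30 and 8.32 in the 4 libraries of central retina and 5.59, 5.92 and 9.02 in the 3 of peripheral retina. They were 19.9 and 20.74 in whole retina and 5.54 and 8.39 in whole eye. Both whole retinas lay above the other 9 libraries, while the values of central retina, peripheral retina and whole eye overlapped. By rank within its library, EGR1 lay above 71.7% and 73.5% of genes in the whole retinas, and above 37.2% to 55.0% of genes in each of the other libraries.

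JUN varied less between tissues. Its values were 17.25, 13.42, 15.09 and 19.56 in central retina, 13.14, 13.70 and 11.94 in peripheral retina, 13.24 and 8.97 in whole retina, and 13.33 and 12.58 in whole eye. All 4 central libraries lay above both whole eyes and both whole retinas, but the lowest central value was under the highest peripheral one. Whole eye, peripheral retina and whole retina, next in the order of means, overlapped.

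ATF3 stood lowest in peripheral retina. Its values were 1.83, 1.76, 2.14 and 2.99 in central retina, 0.78, 0.55 and 1.24 in peripheral retina, 3.74 and 1.78 in whole retina, and 4.29 and 2.24 in whole eye. All 3 peripheral libraries lay under the other 8. Whole eye, whole retina and central retina, in descending order of their means, overlapped with each other. Levels of different genes are not ranked against each other here, since the scaling of the values for gene length is not stated.

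**Figure D1:**
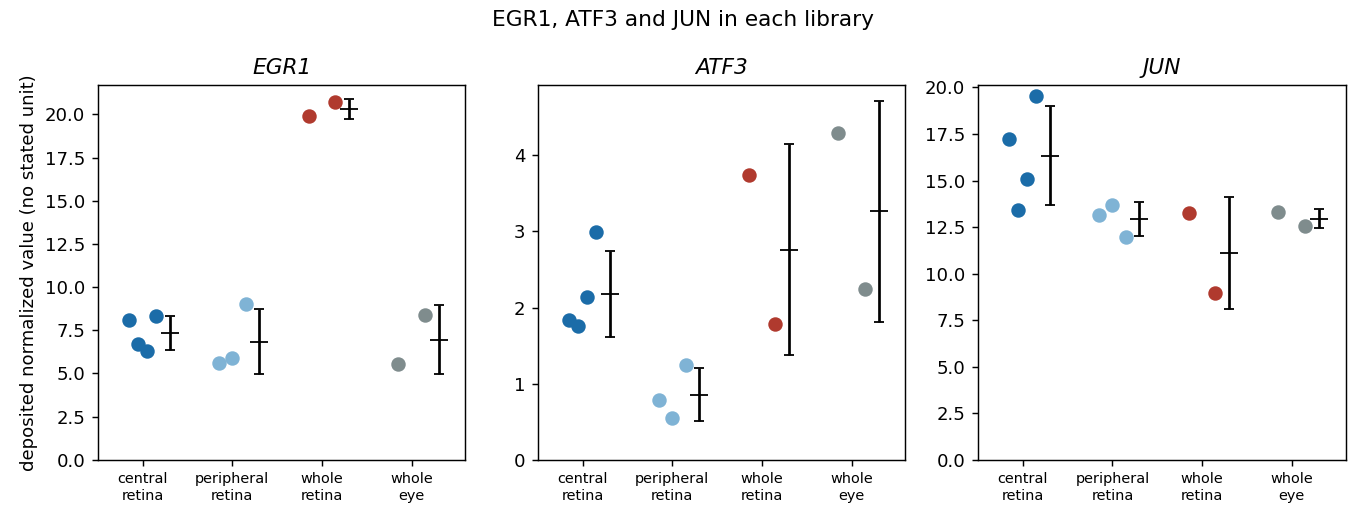
Deposited normalized value (vertical axis, no stated unit) of EGR1, ATF3 and JUN in each library of central retina, peripheral retina, whole retina and whole eye; points are libraries, and the black mark and bar are mean and SD. EGR1 is near 20 in both whole retinas and at or under 9.02 elsewhere, and ATF3 is at or under 1.24 in each peripheral library.

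The ratio of 2 genes within a library does not change when all values of that library are scaled. EGR1 divided by JUN was 1.50 and 2.31 in the whole retinas. In the other 9 libraries this ratio lay between 0.416 and 0.755. EGR1 divided by FOS, a ratio to another gene of the same response, was 1.68 and 1.46 in whole retina, 0.821 and 1.03 in whole eye, and between 0.456 and 0.867 in the regional libraries. JUN divided by ATF3 was 6.54 to 9.43 in central retina, 9.63 to 24.9 in peripheral retina, 3.54 and 5.04 in whole retina, and 3.11 and 5.62 in whole eye.

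**Figure D2:**
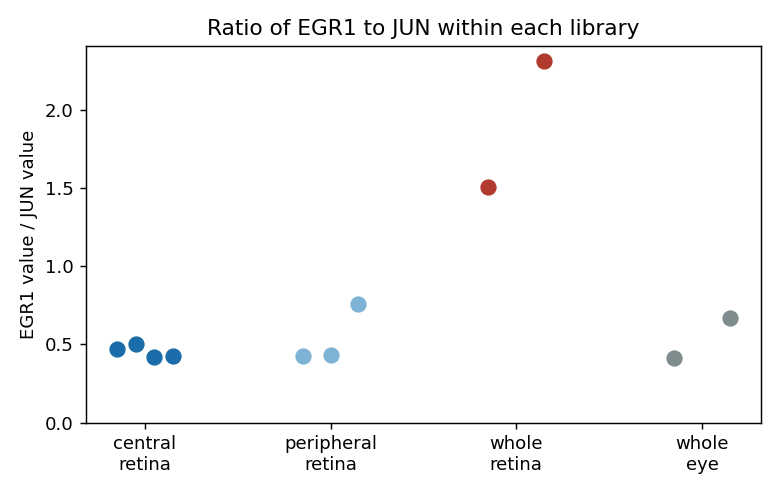
Value of EGR1 divided by the value of JUN (vertical axis, a ratio) in each library of the 4 tissues, 1 point per library. The whole retinas sit at 1.50 and 2.31, above the range of 0.416 to 0.755 of the other 9 libraries.

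The series set out to examine regions of the eye and retina, which includes setting whole retina against whole eye. EGR1 averaged 20.3 ± 0.594 in whole retina and 6.97 ± 2.02 in whole eye (SD, n = 2 each), 2.92 times as much. Its difference on the log2(value + 1) scale was 1.44 ± 0.23 (SE, limma adjusted p = 0.00492). Among 11933 genes tested, 2.27% passed an adjusted p of 0.05 in either direction in this comparison, 0.168% (20 genes) being higher and 2.1% lower in whole retina. EGR1 was 1 of those 20. Of all calls, 7.38% were higher in whole retina as deposited and 16.4% of 269 after quantile normalization, where EGR1 passed too, at 1.51 (limma adjusted p = 0.00749). The call was lost without whole eye replicate 1, at a difference of 1.18 and a limma adjusted p of 0.0502.

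ATF3 and JUN did not pass between these tissues. ATF3 averaged 2.76 ± 1.39 in whole retina and 3.27 ± 1.45 in whole eye, with a log2 difference of −0.19 and a 95% interval of −0.86 to 0.48 (limma adjusted p = 0.855). JUN averaged 11.1 ± 3.02 in whole retina and 13.0 ± 0.530 in whole eye, with a log2 difference of −0.23 and an interval of −0.66 to 0.21 (limma adjusted p = 0.729). With 2 libraries in each group these intervals are wide.

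Other genes of the response were not called higher with EGR1, which with 2 libraries a group does not set them apart from it. FOS, which encodes the main partner of JUN, had values of 11.84 and 14.25 in whole retina against 6.75 and 8.15 in whole eye, groups that did not overlap, with a log2 difference of 0.73 (limma adjusted p = 0.382). Groups did not overlap for 31.6% of all genes tested. Of the 4 tested genes of the JUN and FOS family, limma called 0, with 1 higher and 0 lower at an unadjusted p under 0.05. NR4A1, another immediate early gene, had 12.12 and 13.42 in whole retina against 9.72 and 5.31 in whole eye. It was 1 of 5 without overlap among the 18 tested on its list. JUNB, a relative of JUN whose name begins with that of JUN, had values of 17.53 and 7.63 in whole retina against 10.53 and 10.86 in whole eye. Of 18 tested genes on a list of other immediate early genes, limma called 0 higher, with 1 at an unadjusted p under 0.05, and 1 lower. The lower one was KLF4, a transcription factor gene of surface epithelia, at 5.78 and 3.04 in whole retina against 17.99 and 12.03 in whole eye (log2 difference −1.59, limma adjusted p = 0.00727). Its call was lost without whole eye replicate 1 (limma adjusted p = 0.0704). GADD45A, a stress gene on the list of axon injury genes, was lower too, at 25.62 and 35.51 in whole retina against 55.88 and 62.13 in whole eye (limma adjusted p = 0.0204), and was called neither without whole retina replicate 1 nor without either whole eye. Of the other lists, limma called 0 of 11 ATF, CREB and MAF genes, with 1 higher at an unadjusted p under 0.05, and 0 of 9 MAP kinase phosphatases and inhibitors, also with 1. It called 0 of 14 upstream kinases and 0 of 9 integrated stress response targets, with 0 at an unadjusted p under 0.05 in both.

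Markers of some cell types also differed between whole retina and whole eye. Limma called 0 of 7 ganglion cell, 0 of 8 rod, 0 of 8 cone and 0 of 8 Müller glia markers in either direction. It also called 0 of 6 pigment epithelium, 0 of 6 vascular and 0 of 7 stroma markers. Each of the 3 corneal and conjunctival markers tested was lower in whole retina, where they summed to 13.3 to 61.5, against 1013 to 1276 in whole eye. All 4 lens markers and both blood markers were lower in whole retina as well. The 6 immune markers had overlapping sums of 397 to 1449 in whole retina and 288 to 401 in whole eye, and limma called 0 of them, with 2 (CD74 and CSF1R) higher and 0 lower at an unadjusted p under 0.05. The part of these cell types in the EGR1 difference was not tested. In bulk tissue, fewer cells of a type and less RNA per cell cannot be told apart.

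Between central and peripheral retina, ATF3 was the one of the 3 genes that passed. It averaged 2.18 ± 0.565 in central retina (SD, n = 4) and 0.857 ± 0.351 in peripheral retina (SD, n = 3), 2.54 times as much, and the groups did not overlap. The difference was 0.78 ± 0.23 on the log2(value + 1) scale (SE, limma adjusted p = 0.0373). EGR1 averaged 7.35 ± 0.998 in central and 6.84 ± 1.89 in peripheral retina, a log2 difference of 0.11 with an interval of −0.28 to 0.50 (limma adjusted p = 0.699). JUN averaged 16.3 ± 2.66 in central and 12.9 ± 0.899 in peripheral retina, a log2 difference of 0.30 with an interval of −0.03 to 0.64 (limma adjusted p = 0.174). The share of all genes tested that passed in this comparison was 21.3%.

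The ATF3 call was close to the threshold. It was lost without central retina replicate 1, 3 or 4 (limma adjusted p = 0.0527, 0.0755 and 0.104) and without peripheral retina replicate 1 or 2 (0.101 and 0.15), while the log2 difference stayed between 0.66 and 0.92 in all fits with 1 library left out. With the values of ATF3 this low, the pseudocount of 1 shrinks the difference, which was 1.29 with a pseudocount of 0.1 (limma adjusted p = 0.0207) and 0.17 with 10 (limma adjusted p = 0.103).

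**Figure D3:**
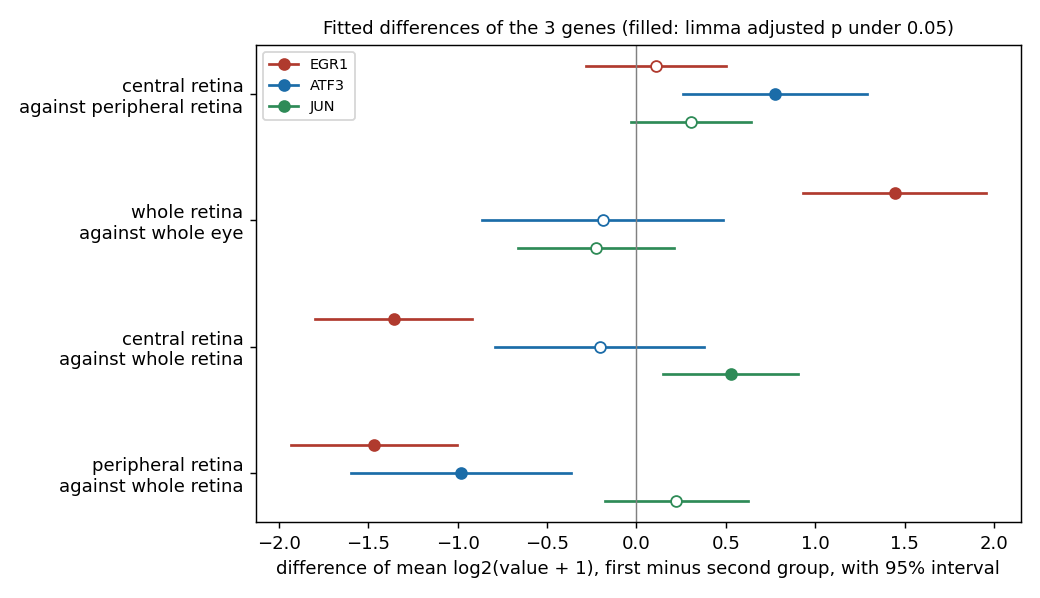
Fitted difference of mean log2(value + 1), first minus second group (horizontal axis), of EGR1, ATF3 and JUN in the 4 comparisons, with 95% intervals; filled points passed a limma adjusted p of 0.05. EGR1 is at 1.44 in whole retina against whole eye and at −1.36 and −1.47 in central and peripheral retina against whole retina.

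JUNB and FOS were listed higher in central retina without passing. JUNB had 14.74, 14.96, 17.61 and 19.40 in central retina, against 10.72, 10.90 and 10.60 in peripheral retina, with no overlap and a log2 difference of 0.58 (limma adjusted p = 0.0731). Groups did not overlap for 34.6% of all genes tested. FOS had 9.63, 10.55, 13.06 and 18.25 in central retina, against 7.55, 6.83 and 11.80 in peripheral retina (log2 difference 0.51, limma adjusted p = 0.126). Of the 4 tested genes of the JUN and FOS family, limma called 0 in either direction, while 2 were higher and 0 lower at an unadjusted p under 0.05. The other tested member, FOSL2, which like FOS shares its name start with another gene, lay between 2.63 and 3.75 in central and between 2.22 and 2.56 in peripheral retina. Of the EGR family and its corepressors, EGR1 and NAB1 were tested and limma called 0, with 1 (NAB1) higher and 0 lower at an unadjusted p under 0.05. EGR3 was at or under 0.43 in every library and NAB2, a corepressor of EGR proteins, was listed at 0 in all 11, so both fell under the filter on low values.

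Genes listed with ATF3 went both ways between the regions. Of 11 tested ATF, CREB and small MAF genes, 3 were higher in central retina (MAFG, MAFF and ATF3 itself) and 2 lower (ATF1 and CREM). Among all genes tested, 12.5% were higher and 8.76% lower. The estimates of 8 of the 11 were under 0. MAFG and MAFF encode small MAF proteins, leucine zipper factors that bind DNA in pairs with larger partners. MAFF had 1.83, 2.82, 2.92 and 3.64 in central retina, against 0.96, 0.88 and 1.13 in peripheral retina (log2 difference 0.91, limma adjusted p = 0.0139). MAFG averaged 14.5 ± 2.52 in central and 8.74 ± 0.742 in peripheral retina (log2 difference 0.66, limma adjusted p = 0.00788). The lower pair belongs to the CREB group, whose members answer to cyclic AMP. ATF1 averaged 5.22 ± 0.657 in central retina against 7.56 ± 0.292 in peripheral retina (limma adjusted p = 0.0213). CREM averaged 5.38 ± 0.307 in central retina against 7.62 ± 1.05 in peripheral retina (limma adjusted p = 0.0322). The median log2 difference of the 11 was −0.09, against −0.01 over all genes, and of the 5 calls 1, that of MAFG, stayed whichever library was left out.

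Among other immediate early genes, 6 of 18 tested were higher in central retina and 1 was lower, where 12.5% of all genes tested were higher and 8.76% lower. The median log2 difference was 0.27. MYC, a growth regulator, had 8.42, 9.32, 14.56 and 12.06 in central retina, against 2.98, 1.86 and 4.34 in peripheral retina (log2 difference 1.59, limma adjusted p = 0.00224). RHOB, a small GTPase gene induced by stress, averaged 63.0 ± 6.75 in central retina against 39.1 ± 4.06 in peripheral retina (limma adjusted p = 0.00693). CYR61, a matrix signal gene, averaged 2.75 ± 0.364 in central retina against 1.55 ± 0.196 in peripheral retina (limma adjusted p = 0.0104). KLF10, a transcription factor gene, averaged 3.59 ± 0.342 in central retina against 2.49 ± 0.233 in peripheral retina (limma adjusted p = 0.0289). The names MYC, RHOB and KLF10 begin, or begin with, another gene's name. GADD45B and KLF4 also passed, at limma adjusted p of 0.043 and 0.0498. The lower gene, MCL1, a survival gene of the BCL2 family, had a mean of 21.5 ± 2.96 for central and 31.1 ± 0.690 for peripheral retina (limma adjusted p = 0.032). Of these 7 calls, 3 (MYC, RHOB and CYR61) stayed in every fit with 1 library left out.

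**Figure D4:**
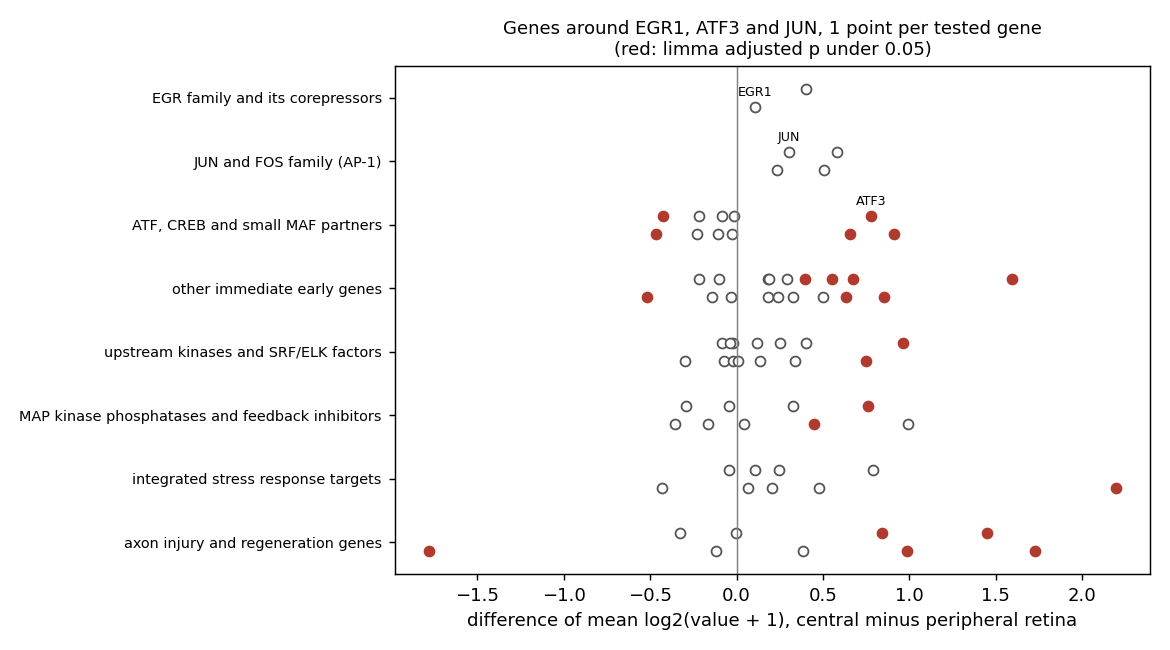
Difference of mean log2(value + 1), central minus peripheral retina (horizontal axis), for the tested genes of the 8 lists around EGR1, ATF3 and JUN, 1 point per gene; red points passed a limma adjusted p of 0.05. The list of other immediate early genes holds 6 red points above 0 and 1 under it, and neither the EGR nor the JUN and FOS family holds any.

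Of 14 tested upstream kinases and SRF or ELK factors, 2 were higher in central retina, a share near the 12.5% of all genes that were, and limma called 0 lower, with 1 lower at an unadjusted p under 0.05. They were MAP3K12, the dual leucine zipper kinase that acts above JUN in injured neurons, and MAPK10, a kinase of JUN found mainly in neurons. MAP3K12 had 19.90, 20.97, 20.92 and 22.65 in central retina, against 10.91, 8.72 and 11.57 in peripheral retina (log2 difference 0.96, limma adjusted p = 0.00112). MAPK10 averaged 24.0 ± 3.48 in central retina against 13.9 ± 2.70 in peripheral retina (log2 difference 0.75, limma adjusted p = 0.00574). Each of these names has its first letters in common with another gene name, and both calls stayed whichever library was left out. The list's median was 0.06.

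Among 9 tested phosphatases and feedback inhibitors of MAP kinases, 2 were higher in central retina and limma called 0 lower, with 1 lower at an unadjusted p under 0.05. The shares over all genes tested were 12.5% higher and 8.76% lower. DUSP4, which removes phosphate from MAP kinases, had 15.18, 13.09, 13.29 and 17.56 in central retina, against 8.46, 8.74 and 7.59 in peripheral retina (log2 difference 0.76, limma adjusted p = 0.00291). SPRED2, an inhibitor of the same cascade whose name shares its start with SPR, averaged 12.6 ± 0.409 in central retina against 9.03 ± 0.682 in peripheral retina (limma adjusted p = 0.00844), a call lost without peripheral retina replicate 2 (limma adjusted p = 0.0528).

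ATF3 is also known as a gene of the integrated stress response, which runs through ATF4. Of 9 tested targets of that response, 1 was higher in central retina, a share near the 12.5% of all genes that were. Limma called 0 lower, with 1 lower at an unadjusted p under 0.05. CHAC1, which encodes an enzyme that breaks down glutathione, had 16.57, 19.64, 23.31 and 34.32 in central retina, against 5.03, 2.60 and 5.30 in peripheral retina (log2 difference 2.20, limma adjusted p = 0.000224). ATF4 itself averaged 186 in central and 190 in peripheral retina, with a log2 difference of −0.01 and an interval of −0.29 to 0.26. DDIT3, which encodes another leucine zipper factor of that response, averaged 42.7 in central and 43.2 in peripheral retina, with a log2 difference of −0.02 and an interval of −0.29 to 0.24. ATF4 and DDIT3 were named after their values were seen.

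Of 9 tested genes of axon injury and regeneration, 4 were higher and 1 lower in central retina, with a median of 0.38. Among all genes tested, 12.5% were higher and 8.76% lower. STMN2, a microtubule regulator of neurons and also on the ganglion cell marker list, had 161.93, 260.8, 208.33 and 270.8 in central retina, against 80.76, 58.92 and 60.62 in peripheral retina (limma adjusted p = 0.00016). KLF7, a transcription factor gene of growing axons, averaged 7.36 ± 0.283 in central retina against 3.23 ± 0.447 in peripheral retina (limma adjusted p = 0.000187). BDNF, a neurotrophin gene, averaged 6.32 ± 1.68 in central retina against 1.66 ± 0.519 in peripheral retina (limma adjusted p = 0.000365). GAP43, a growth cone gene, averaged 10.4 ± 3.16 in central retina against 5.22 ± 0.858 in peripheral retina (limma adjusted p = 0.0115). ECEL1, a peptidase gene of injured neurons, was the exception, with a mean of 24.1 ± 7.33 for central and 82.8 ± 11.7 for peripheral retina (limma adjusted p = 0.0383). The calls on STMN2, KLF7 and BDNF stayed in every fit with 1 library left out, and those on GAP43 and ECEL1 did not.

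Ganglion cell markers differed between the regions too. All 7 tested, STMN2 among them, were higher in central retina, with sums of 2129 to 4073, against 412 to 728 in peripheral retina. Müller glia markers moved the other way, with 6 of 8 lower in central retina at sums of 1241 to 1491, against 2256 to 2604 in peripheral retina. Lower there as well were 4 of 8 rod and 5 of 6 pigment epithelium markers. Of 8 cone markers, 2 were higher and limma called 0 lower. The shares over all genes tested were 12.5% higher and 8.76% lower. The sums of the 6 immune markers were 23.5 to 35.7 for central and 40.6 to 57.4 for peripheral retina. The part of these cell types in the ATF3 difference was not tested.

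Central and peripheral retina were each also set against whole retina, 2 comparisons that share the whole retina libraries. EGR1 fell in both. It averaged 7.35 ± 0.998 in central retina (SD, n = 4) and 20.3 ± 0.594 in whole retina (SD, n = 2), 0.362 times as much, with a log2 difference of −1.36 ± 0.20 (SE, limma adjusted p = 0.000208). It averaged 6.84 ± 1.89 in peripheral retina (SD, n = 3), 0.337 times the whole retina mean, with a log2 difference of −1.47 ± 0.21 (SE, limma adjusted p = 0.000298). Both calls stayed under all 21 alternatives tried for each, at limma adjusted p of at most 0.00444.

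Background rates were high in these comparisons: 48.7% of genes passed in central retina against whole retina, 18.9% higher and 29.7% lower. In peripheral retina against whole retina 34.2% passed, 9.83% higher and 24.3% lower. Groups did not overlap for 58.8% and 57.3% of genes. The rates and directions also moved with scaling. The median over all genes was −0.10 and −0.08 on the log2 scale as deposited, and 0.12 and 0.16 after quantile normalization. Of the calls, 38.9% and 28.8% were higher in the region as deposited, and 59.5% and 60.9% after quantile normalization.

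JUN rose in central retina, at 16.3 ± 2.66 (SD, n = 4) against 11.1 ± 3.02 in whole retina (SD, n = 2), a log2 difference of 0.53 ± 0.17 (SE, limma adjusted p = 0.025). Without whole retina replicate 2, the lowest of all 11 libraries for JUN, the difference was 0.27 (limma adjusted p = 0.305), and leaving out central retina replicate 1 or 4 ended the call as well (limma adjusted p = 0.0546 and 0.056). In peripheral retina JUN averaged 12.9 ± 0.899 against 11.1 ± 3.02 in whole retina, with a log2 difference of 0.22 and an interval of −0.18 to 0.62 (limma adjusted p = 0.379).

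ATF3 fell in peripheral retina, at 0.857 ± 0.351 (SD, n = 3) against 2.76 ± 1.39 in whole retina (SD, n = 2), a log2 difference of −0.98 ± 0.28 (SE, limma adjusted p = 0.0186). Without whole retina replicate 1 the difference was −0.60 (limma adjusted p = 0.176), and the call was also lost without peripheral retina replicate 2 (limma adjusted p = 0.0625) and after quantile normalization, at −0.57 (limma adjusted p = 0.135). In central retina ATF3 averaged 2.18 ± 0.565 against 2.76 ± 1.39 in whole retina, with a log2 difference of −0.21 and an interval of −0.79 to 0.38 (limma adjusted p = 0.549).

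Some of the other immediate early genes were also lower in the regional samples than in whole retina. Of 18 tested, 8 were lower in central retina (29.7% of all genes were) and 12 in peripheral retina (24.3% of all genes), while limma called 0 higher in either, and 0 were higher at an unadjusted p under 0.05. The median log2 differences were −0.47 and −0.71. SGK1, a kinase gene that answers to glucocorticoids, had means of 26.7 for central and 21.7 for peripheral retina, against 54.0 in whole retina (limma adjusted p = 8.67e-05 and 3.28e-05). CYR61 had means of 2.75 for central and 1.55 for peripheral retina, against 5.60 in whole retina (limma adjusted p = 0.000691 and 3.92e-05). NFKBIA, the inhibitor of NF-kappaB, averaged 29.4 in central retina against 55.8 in whole retina (limma adjusted p = 0.000981). KLF10 and GADD45B, the next by p in peripheral retina, averaged 2.49 and 2.72 there against 5.80 and 14.8 in whole retina (limma adjusted p = 0.000225 and 0.000637). In every fit with 1 library left out, 5 of the 8 and 5 of the 12 kept their call, and after quantile normalization 5 and 8 genes of the list were lower. With that scaling 6183 and 5165 of all 11933 genes tested were called, 59.5% and 60.9% of these being higher. The shares of lower genes given above therefore do not apply to the 2 counts after quantile normalization. FOSL2 fell in both regions, with means of 3.07 in central retina and 2.45 in peripheral retina, against 6.99 in whole retina (limma adjusted p = 0.000627 and 0.000323). Of the EGR corepressors, NAB1 fell in peripheral retina, at 10.22, 8.79 and 8.49, against 12.54 and 15.76 in whole retina (limma adjusted p = 0.02). Its call was lost without peripheral retina replicate 2 or 3 or whole retina replicate 2, the last of which gave the highest limma adjusted p, 0.159.

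CHAC1, MAP3K12 and DUSP4 were also higher in central retina than in whole retina, a comparison that shares the central libraries with the one above. CHAC1 had 16.57 to 34.32 in central retina, against 4.25 and 3.55 in whole retina (limma adjusted p = 7.47e-05), while in peripheral retina it had 2.60 to 5.30 (limma adjusted p = 0.878 against whole retina). MAP3K12 averaged 21.1 in central retina against 10.05 in whole retina (limma adjusted p = 0.000441). DUSP4 was higher in both regions, at means of 14.8 in central and 8.26 in peripheral retina, against 4.30 in whole retina (limma adjusted p = 1.04e-05 and 0.00286). Other genes of its list went the other way. Of the 9 phosphatases and inhibitors, 1 was higher and 2 lower in central retina, and 2 were higher and 3 lower in peripheral retina. DUSP6 was lower in both, at means of 14.3 and 13.9 against 32.0 in whole retina (limma adjusted p = 0.00014 and 0.000271). For all these list counts, the shares over all genes tested were 18.9% higher and 29.7% lower in central retina. In peripheral retina they were 9.83% higher and 24.3% lower. Of the 9 integrated stress response targets 4 were lower in central and 3 in peripheral retina than in whole retina. HERPUD1, HSPA5 and XBP1, which are genes of protein folding in the endoplasmic reticulum, were lower in both. Of the 14 upstream kinases and factors 6 were higher and 2 lower in central retina, and 2 higher and 2 lower in peripheral retina, with ELK3 and SRF lower in each. The SRF call in central retina (limma adjusted p = 0.0385) was lost on leaving out any of 6 libraries, at up to 0.255 without whole retina replicate 1. Of the 11 ATF, CREB and MAF genes 1 was higher and 4 were lower in central retina, and 1 higher and 3 lower in peripheral retina, and MAFG was the higher one in each. The MAFG call in peripheral retina (limma adjusted p = 0.0398) was also lost on leaving out any of 6 libraries, at up to 0.268 without whole retina replicate 2.

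Immune and stroma markers differed in these comparisons as well. All 6 immune markers tested were lower in each region than in whole retina, with the sums given above for the regions, against 397 to 1449 in whole retina. The 7 stroma markers, all lower too, had sums of 4.44 to 7.16 in central retina and 12.4 to 19.4 in peripheral retina, against 419 to 470 in whole retina. Their part in the differences of EGR1, ATF3 and JUN was not tested.

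Within a tissue, the 3 genes did not vary as 1 group. Correlations of the deviations of log2 values from the group means are given as a description, over 11 libraries of different tissues and unknown depth. They were 0.01 between EGR1 and ATF3, 0.02 between EGR1 and JUN, and 0.585 between ATF3 and JUN. JUN and JUNB gave 0.77, and EGR1 and FOS 0.62. In the 7 regional libraries alone, ATF3 and FOS gave 0.975 and EGR1 and ATF3 gave 0.68. Central retina replicate 4 and peripheral retina replicate 3 were the highest of their groups for EGR1, ATF3 and FOS. In whole retina, ATF3, JUN and JUNB were higher in replicate 1, while EGR1 and FOS were slightly higher in replicate 2.

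**Figure D5:**
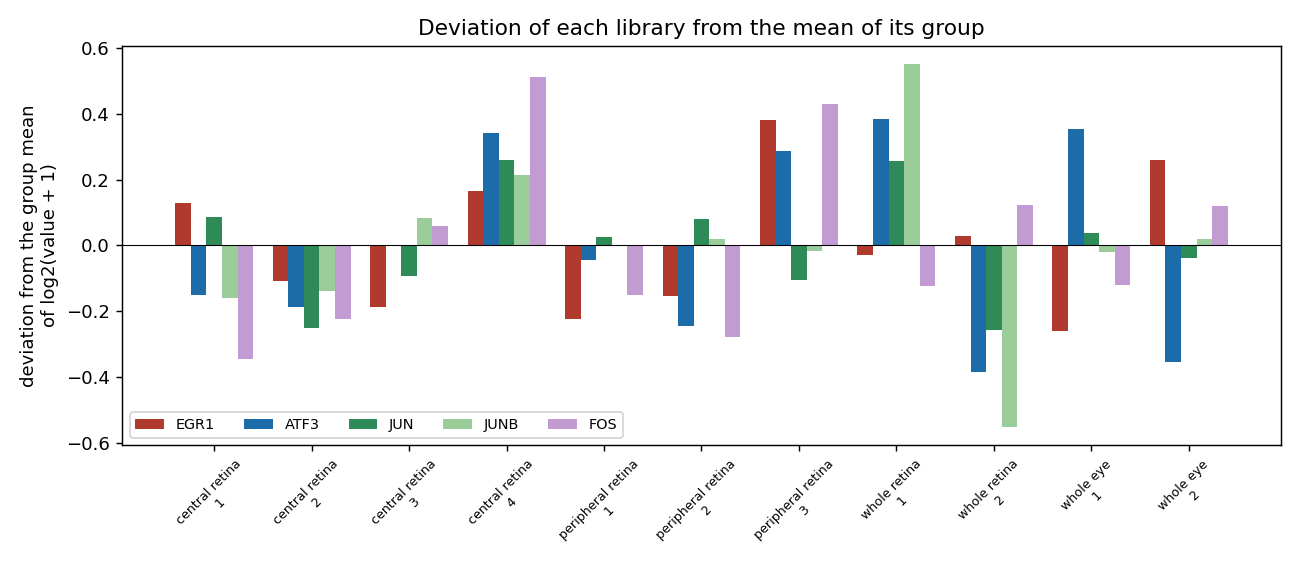
Deviation of each library from the mean of its group on the log2(value + 1) scale (vertical axis) for EGR1, ATF3, JUN, JUNB and FOS, 1 cluster of bars per library. All 5 genes are above their group means in central retina replicate 4, while in whole retina replicate 1 ATF3, JUN and JUNB are above and EGR1 and FOS under them.

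The genes most like EGR1 by Pearson correlation of log2 values over the 11 libraries were CXCL13 (0.916), MAMU-DRB5 (0.897) and RERE (0.876), among 6006 genes compared. CXCL13, a chemokine gene that attracts B cells and shares its name start with CXCL1, was at 48.43 and 346 in whole retina, 0.44 and 1.24 in whole eye, and listed at 0 in all 7 regional libraries. MAMU-DRB5, an antigen presentation gene, was at 20.25 and 13.28 in whole retina and at or under 3.76 in the other libraries. These genes thus shared with EGR1 the high values in whole retina, which held 2 of the 11 points. The genes most like ATF3 were SNX17 (0.968), TRAPPC2L (0.96) and AKR1A1 (0.953), all with their lowest mean in peripheral retina. Those most like JUN were RASSF7 (0.909), PPP5C (0.882) and DEAF1 (0.88), all with their highest mean in central retina.

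By the deviations from the group means, which leave the tissue out, the closest genes were others. They were TMEM107 (0.892), GAD2 (0.878) and MRPS23 (0.87) for EGR1, and IFFO1 (0.988), B4GALNT4 (0.985) and ZYX (0.982) for ATF3. For JUN they were LST1 (0.951), DUSP4 (0.951) and CTBP1 (0.95). These were the highest values among 6006 or 6007 genes over 11 libraries. LST1 met the minimum mean for this comparison in whole retina alone, with a mean of 10.63 from values of 14.71 and 6.55. Its mean in whole eye was 6.335. In the regional libraries LST1 lay between 0.15 and 1.41, so its deviations there are those of low values. DUSP4, the MAP kinase phosphatase described above, was the one of these 18 genes that was also on a list around the response.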

How the data were processed

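The deposited tables hold a normalized signal, as their headers name it, with 1 library per table; how the authors normalized it is not given in the sources used here. GSNAP, an aligner, and HTSeq, a read counter, are named in the submitters' processing notes without version. Genome build and annotation are not given, so no coordinates or sequences are printed. Of 13083 rows, 27 without a number and 61 exact duplicates were dropped, leaving 12995 genes; of 12976 unique names, 9490 match current RefSeq symbols of the species, the 3 genes among them. Samples were grouped by tissue label.

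Values were analysed with limma 3.58.1 (R 4.3.3) on log2(value + 1), in 1 linear model of 11 libraries in 4 groups with a variance trend. The 11933 genes whose mean reached 1 in some group were tested. Tests were two-sided, with Benjamini-Hochberg adjustment over all genes of a comparison and a threshold of 0.05. The steps were tested on simulated data. All groups share 1 variance per gene. Alternatives were other pseudocounts, filters and scalings, a fit of 2 groups only, no variance trend, a replicate block, JUNB added to JUN, and leaving out each library.

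The 3 genes, the 8 gene lists and the marker lists were chosen with earlier results of these data known. From each list, called genes are named by smallest p, up to 4 per direction or all of 5 or fewer; the genes most like each of the 3 are the 3 with the highest correlation, with a mean of at least 10 in a group. JUNB is given beside JUN for its name. FOS, FOSL2 and single list members without a call were named after their values were seen. For genes whose name begins with that of another, a library's values may have been swapped between them; the names of EGR1 and ATF3 share theirs with none, and that of JUN with JUNB.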

Additional observations from a re-analysis of the deposited data

Results flagged for a closer look

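In central retina, the one group with enough libraries (4) to test for an outlying one, EGR1, ATF3 and JUN had none. Of the 70 genes tested, named or called on a list, 3 had a central library far from the others, and chance flags about 1 in 20. KLF4 was at 1.67 in 1 central library and between 2.68 and 2.87 in the other 3. VLDLR, a lipoprotein receptor gene of the stress response list, was at 30.92 in 1 and between 20.71 and 22.23 in the others. SNX17, the gene most like ATF3, was at 86.26 in 1 and between 67.83 and 69.49 in the others. List genes without a call were mostly not among the 70, and some of them also had a central library far from the others. DUSP1, a MAP kinase phosphatase gene whose name begins that of DUSP10, was at 38.98 in central retina replicate 1. It was between 0.44 and 0.98 in the other 3 central libraries. NPY was at 6.09 in replicate 1 and between 0 and 0.46 in the other 3.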

How the results depend on the processing

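Differences here are on the log2 scale. EGR1 in central and in peripheral retina against whole retina and JUN in central against peripheral retina kept their direction and side of the threshold under all 21 alternatives each. The ATF3 call of central against peripheral retina was lost with no filter on low values (0.78, limma adjusted p = 0.0532) and with a pseudocount of 10 (0.17). That of peripheral against whole retina was lost after quantile normalization (−0.57), which also turned central against whole retina to 0.22. The JUN call of central against whole retina was lost with JUNB added (0.52, limma adjusted p = 0.0534) and with the libraries of the 2 groups alone (0.53, limma adjusted p = 0.0597). The cause was not tested. ATF3 has no value with a minimum mean of 10, which it does not reach.

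With 1 library left out, ATF3 ranged from 0.66 to 0.92 in central against peripheral retina, from −0.59 to 0.18 in central and from −1.37 to −0.60 in peripheral against whole retina, and from −0.57 to 0.20 in whole retina against whole eye. EGR1 ranged from −0.0034 to 0.30 in central against peripheral retina and from 1.18 to 1.71 in whole retina against whole eye. JUN ranged from 0.27 to 0.78 in central and from −0.034 to 0.48 in peripheral against whole retina, and from −0.48 to 0.030 in whole retina against whole eye. Directions that turned were those of EGR1 without peripheral retina replicate 1 (−0.0034), of ATF3 without whole retina replicate 1 in central against whole retina (0.18), of ATF3 without whole eye replicate 1 (0.16) or whole retina replicate 2 (0.20) in whole retina against whole eye, and of JUN without whole retina replicate 2 in peripheral against whole retina (−0.034) and whole retina against whole eye (0.030). None of these was called in either fit. Where a group kept 1 library, it was assumed to vary like the others.

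Whether samples are paired is not stated. Same-numbered central and peripheral libraries deviated together at −0.14, −0.06 and 0.36. Those with different numbers gave −0.24 to 0.36, with 0.36 for central replicate 1 and peripheral replicate 2, and 0.35 for central replicate 2 and peripheral replicate 1. A pairing under crossed numbers was not tested. Whole retina and whole eye gave 0.19 for both pairs. With 2 libraries a group the deviations mirror each other, so this value cannot settle pairing. With the replicate block, which pairs by number, ATF3 in central against peripheral retina was 0.66 (limma adjusted p = 0.0199), EGR1 in whole retina against whole eye 1.44 (0.0373) and JUN in central against whole retina 0.53 (0.0225), and none of the 12 results changed its side of the threshold. Central retina replicate 4 shares its number with no peripheral library, so the block gave ATF3 the same difference as leaving that library out. The block took the calls over all genes in central against peripheral retina to 1662, against 2538 without it; without central retina replicate 4 or peripheral retina replicate 2 they were 1654 and 1328. In whole retina against whole eye they were 163 with the 2 groups alone, 102 with a minimum mean of 10 and 784 without whole retina replicate 2, against 271. That minimum gave 3675 in central and 2524 in peripheral against whole retina, with fewer genes tested, against 5806 and 4077. Depth is unknown, so counting error could not be given for any of the 3 genes.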
